A study of Mus musculus with 6 samples.

Results

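The comparison is between the libraries labelled MUT and KO, both from mouse embryonic fibroblasts that carried OSKM and received 4-hydroxytamoxifen (4OHT), sampled on day 7 of reprogramming. It uses 3 of the 6 libraries, chosen by their titles and treatment: 1 MUT library (Adar1 Fl/E861A with 4OHT) and 2 KO libraries (Adar1 Fl/Fl with 4OHT). The other 3 libraries received vehicle and have the same alleles, 1 HET library (Adar1 Fl/E861A) and 2 WT libraries (Adar1 Fl/Fl), and serve as the background measured without 4OHT. OSKM stands for Oct4, Sox2, Klf4 and Myc, the factors that turn fibroblasts into induced pluripotent stem cells, and all 6 libraries share them. 4OHT is commonly used to activate a Cre recombinase that cuts out floxed (Fl) sequence, so that KO cells are meant to lose ADAR1 and MUT cells to keep only the copy with E861A. The Cre line, the floxed exons and the number of embryos or cultures are not named in the labels. MUT and KO therefore differ both in their alleles and in any background that the Fl/E861A and Fl/Fl cells do not share. With 1 MUT library there is no MUT replicate. The p-values and standard errors (SE) rest on the spread between the 2 KO libraries, pooled over genes, and that spread may be technical.

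ADAR1, the product of Adar, turns adenosine into inosine in double-stranded RNA. Edited self RNA is poorly seen by the double-stranded RNA sensors MDA5 and PKR, which otherwise start an interferon response and, through phosphorylated eIF2 alpha, a stress response that raises the transcription factors ATF4 and CHOP. The E861A change lies in the catalytic part of the enzyme and is known to abolish editing while the protein can still bind RNA. MUT against KO thus sets cells left with an editing-dead protein beside cells meant to have no ADAR1.

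Values are FPKM, fragments per kilobase of transcript scaled to the mapped fragments of the library, compared as log2(FPKM + 1), a scale that understates the change of low genes. The 9119 genes tested had at least 5 FPKM in 1 or more of the 3 libraries. A gene was called where the Benjamini-Hochberg adjusted p of limma's moderated test was under 0.05, with the MUT library assumed to vary like the KO libraries. For a single gene taken alone, 1 library against 2 cannot give an exact two-sided permutation p below 0.333, so every call rests on the spread pooled over genes. The SE therefore says little about a gene's own KO pair. Dppa5a, at 6.91 and 3.34 FPKM in KO, had an SE of 0.155, and Postn, at 9.73 in both, had 0.136. The estimated depth was 15600000 fragments in MUT and 22600000 and 19900000 in KO 1 and KO 2, against 16700000 to 18200000 in the vehicle libraries. Rows without a gene name held 8.55% of all FPKM in MUT and 11.4% and 14.2% in the KO libraries, and 8.26% to 10.2% with vehicle.

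Adar itself was listed at 33.0 FPKM in MUT and at 34.2 and 31.3 in KO. MUT lay between the KO libraries, with a log2 difference of 0.01 ± 0.14 (SE, limma adjusted p = 0.980). The vehicle libraries were lower, at 19.6 and 19.5 in WT and 17.0 in HET, so the gene-level value does not show the loss that the KO label names. A gene-level FPKM counts all exons of Adar (GRCm38, chr3:89715022-89753446, plus strand), whether floxed or not, and so checks neither the deletion nor which allele is read. KO and MUT are used below as the names on the labels. Adarb1, which encodes the other editing enzyme, ADAR2, was under the level needed for the test, at 1.61 FPKM in MUT, 0.798 and 0.924 in KO, 3.54 in HET and 2.45 and 2.75 in WT. Adat2, a subunit of the tRNA adenosine deaminase, had 6.30 FPKM in MUT and 7.08 and 7.97 in KO.

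The promoters below stand for genes that the results turn on: Chac1 and Atf3, which ATF4 switches on when translation is stressed, and Mki67 and Top2a, which dividing cells express. Each is the 250 bases before the gene's start in RefSeq (GRCm38.p6), read 5′ to 3′ on the gene's strand. Capitals mark TGATGNAA, the core of the amino acid response element that ATF4 binds, in Chac1 (chr2:119350992-119351241, plus strand) and Atf3 (chr1:191183334-191183583, minus strand). In Mki67 (chr7:135716380-135716629, minus strand) they mark TTTGAA, the cell cycle homology region, and in Top2a (chr11:99024190-99024439, minus strand) CCAAT, the box bound by NF-Y. All were searched on both strands.
Chac1: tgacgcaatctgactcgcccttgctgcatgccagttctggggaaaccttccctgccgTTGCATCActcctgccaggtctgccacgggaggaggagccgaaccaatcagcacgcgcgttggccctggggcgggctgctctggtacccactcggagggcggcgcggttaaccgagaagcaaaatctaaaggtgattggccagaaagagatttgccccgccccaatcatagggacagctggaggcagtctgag
Atf3: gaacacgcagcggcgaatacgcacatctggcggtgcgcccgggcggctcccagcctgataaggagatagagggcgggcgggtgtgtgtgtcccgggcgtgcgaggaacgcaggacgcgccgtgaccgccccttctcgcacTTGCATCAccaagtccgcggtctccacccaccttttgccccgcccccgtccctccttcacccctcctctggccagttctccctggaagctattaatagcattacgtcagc
Mki67: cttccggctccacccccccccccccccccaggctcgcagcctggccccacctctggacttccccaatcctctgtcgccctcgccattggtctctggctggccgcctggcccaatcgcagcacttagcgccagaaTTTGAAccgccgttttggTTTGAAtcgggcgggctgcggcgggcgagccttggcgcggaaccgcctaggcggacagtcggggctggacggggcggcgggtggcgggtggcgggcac
Top2a: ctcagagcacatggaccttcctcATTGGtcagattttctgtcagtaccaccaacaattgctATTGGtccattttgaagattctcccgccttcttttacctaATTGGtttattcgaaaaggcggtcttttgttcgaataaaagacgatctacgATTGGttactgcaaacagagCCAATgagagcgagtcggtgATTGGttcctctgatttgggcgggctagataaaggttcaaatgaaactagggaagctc
The ATF4 motif starts 193 bases before the start of Chac1 and 110 before that of Atf3. It was found in 9 of 36 windows of ATF4 and CHOP targets (25%) and in 955 of 27025 windows of all genes (3.53%). TTTGAA was found in 8 of 24 windows of mitosis genes (33.3%) against 16.3% of all windows, and CCAAT in 20 of 24 (83.3%) against 34.5%. A match describes the letters in the window and is not a measured binding site.

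Most genes had similar levels in MUT and KO, and a minority differed in both directions. limma called 1323 of 9119 genes (14.5%), 688 higher in MUT (7.54%) and 635 lower (6.96%), so 52% of the calls were higher. That split depends on the scaling: it was 62.5% higher with median-of-ratios scaling and 61.1% when the named rows were rescaled to a common total. MUT lay outside both KO libraries in 7162 genes (78.5%), 2720 above (29.8%) and 4442 below (48.7%), a share that a lone library reaches easily and that is the background for any such count. MUT was at least 2-fold beyond both KO libraries in 163 genes (1.79%), 96 above (1.05%) and 67 below (0.735%), and limma called each of these. By comparison, 11 genes were at least 2-fold apart between KO 1 and KO 2. Across genes Pearson's r was 0.9935 between the KO libraries and 0.9761 and 0.9705 between MUT and each of them. When the filter on low values was removed, limma called 0 of 16867 genes, with 3014 at an unadjusted p under 0.05. Of the 98 called genes named by rule, 0 stayed called, with their FPKM values unchanged. Every call thus depends on the filter, which decides the genes over which the spread is pooled.

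**Figure D1:**
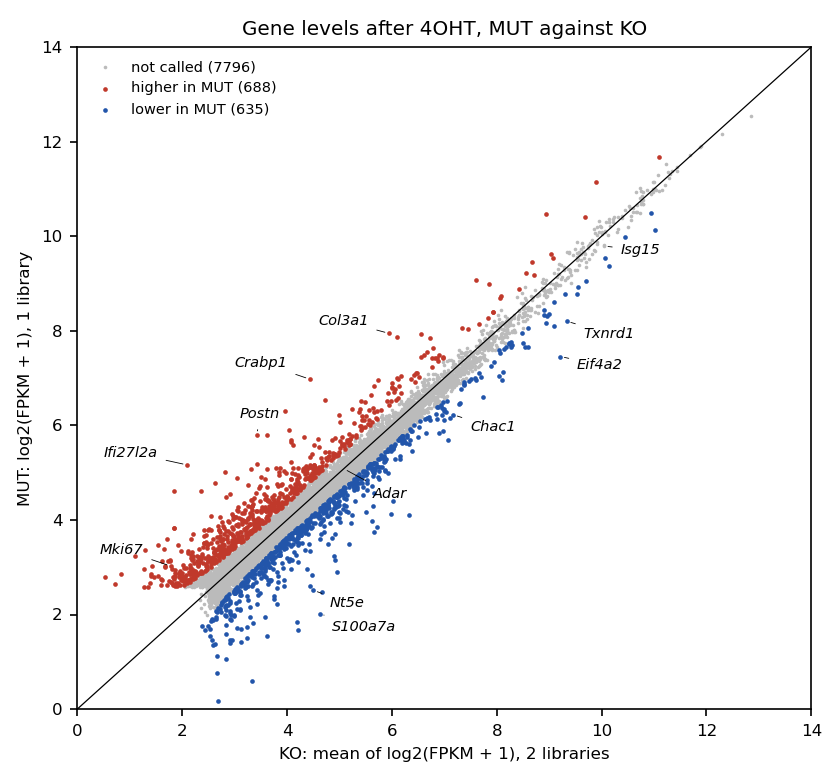
Each point is 1 of the 9119 genes tested, with the mean log2(FPKM + 1) of the 2 KO libraries on the x axis and log2(FPKM + 1) of the MUT library on the y axis. The line marks equal levels. The 688 genes called higher in MUT (red) and the 635 called lower (blue) lie on both sides of it, Adar lies on it, and Postn, Ifi27l2a and Col3a1 stand far above it.

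Genes of the extracellular matrix, the collagens and associated proteins that fibroblasts secrete, were higher in MUT. Of 43 matrix genes tested, 30 were higher in MUT and 1 was lower, with a median log2 difference of 0.71 against -0.06 over all genes tested, of which 7.54% were higher. Of these, 14 were at least 2-fold above both KO libraries. Under a filter on the vehicle libraries, 791 of 9404 genes were higher in MUT and 518 lower, the background for counts so chosen. Chosen by their level with vehicle instead, so that neither MUT nor KO decided which genes entered, 29 of 46 were higher; the count lower was 4 without KO replicate 1 and 2 without KO replicate 2. Postn, which encodes the matrix protein periostin (chr3:54361109-54391037, plus strand), was at 54.5 FPKM in MUT and at 9.73 in both KO libraries, a log2 difference of 2.37 ± 0.14 (adjusted p = 5.03e-64). Col3a1, a fibrillar collagen (chr1:45311538-45349706, plus strand), was at 245.4 FPKM in MUT and at 65.5 and 56.0 in KO, a difference of 2.0015 ± 0.16 (adjusted p = 1.42e-33). Mfap4, a microfibril protein, had 11.1 FPKM in MUT against 2.53 and 2.01, and Col6a3, a chain of collagen VI, had 58.8 against 16.00 and 14.8. In each of these genes MUT stood above both KO libraries, and the KO libraries were close to each other. The KO level was the lowest of the 4 groups, and MUT did not reach the vehicle libraries: Postn had 307 and 309 FPKM in WT and 411 in HET, and Col3a1 had 1054 and 953 in WT and 857 in HET.

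Members with the bulk of fibroblast collagen followed the same order. Col1a2 had 536 FPKM in MUT and 209 and 181 in KO, and Col1a1 had 504 against 267 and 198. Both encode chains of type I collagen, and both were called higher in MUT. Lox, which crosslinks collagen, had 198 FPKM in MUT and 104 and 113 in KO. Thbs1, the matrix glycoprotein thrombospondin, was the 1 member lower in MUT, by 0.65 on the log2 scale. Fn1, fibronectin, did not pass the test, at 1176 FPKM in MUT and 1012 and 919 in KO.

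In the matrix genes the allele difference after 4OHT departed from that with vehicle. Their median log2 difference was 0.71 for MUT against KO and -0.01 for HET against WT. A limma test of the difference between these differences, fitted over all 6 libraries, called 450 of 9119 genes (4.93%), 341 more positive after 4OHT (3.74%) and 109 more negative (1.2%). Among the 43 matrix genes it called 23, all more positive, against 3.74% of all genes. Col3a1 gave 2.23 ± 0.19 (adjusted p = 2.59e-05), Mfap4 2.12, Postn 1.95 and Col6a3 1.85. These genes were thus higher in MUT than in KO by more than the vehicle-treated cells with the same alleles differed.

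**Figure D2:**
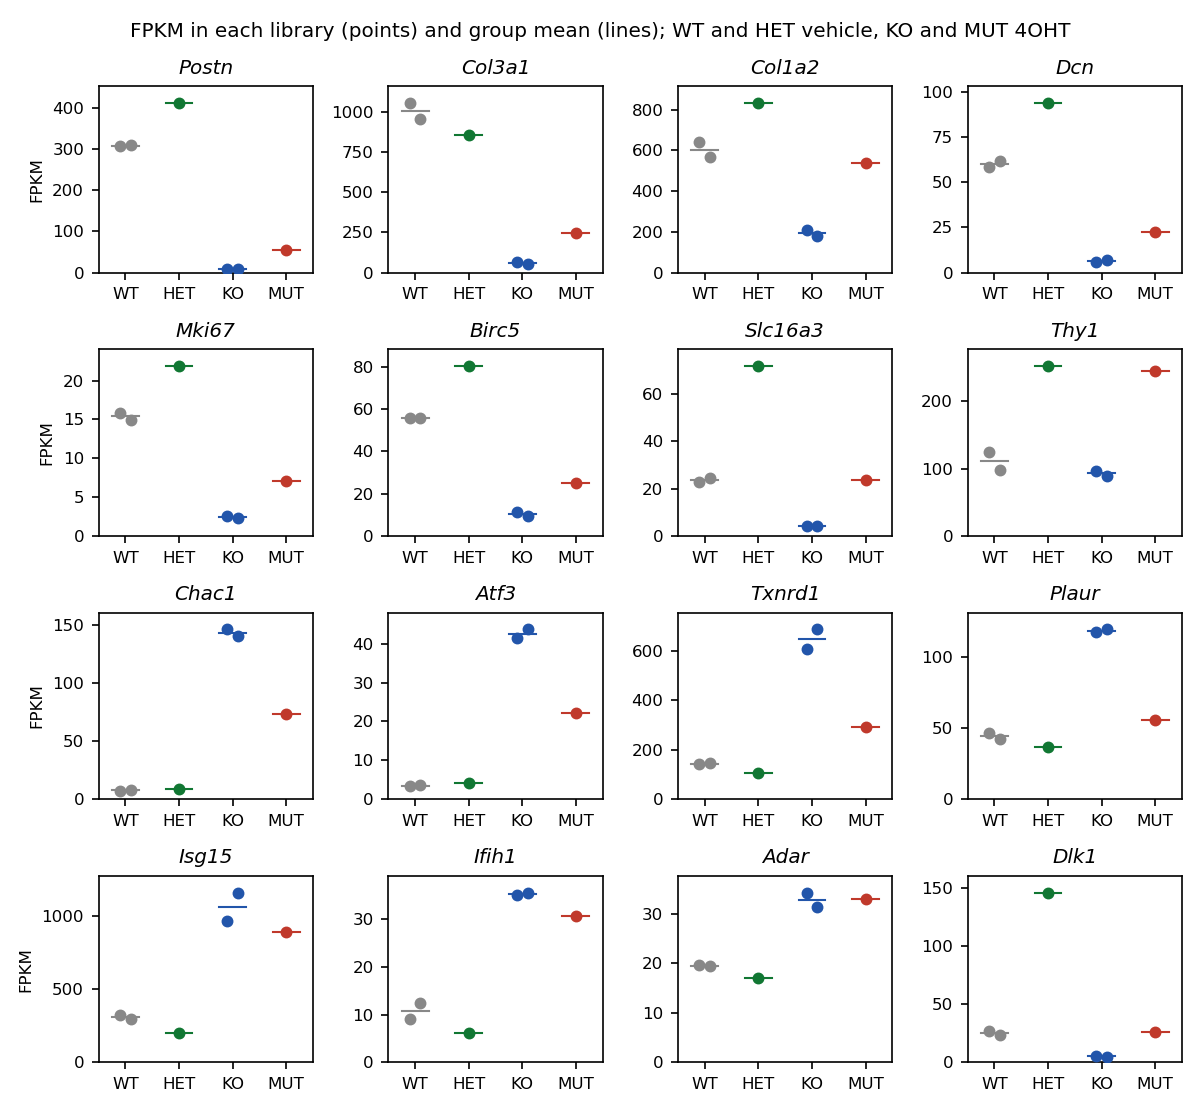
FPKM of 16 genes in each library (points) with the group mean (line), for WT (2 libraries) and HET (1 library) with vehicle and KO (2 libraries) and MUT (1 library) with 4OHT. Each panel has its own axis from 0. For Postn, Col3a1 and Dcn MUT lies above KO and under both vehicle groups, for Chac1 and Atf3 MUT lies between KO and the vehicle libraries, and Adar is alike in KO and MUT.

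Fibroblast markers were checked to see whether the labelled cell type was present. All 10 markers passed the filter, and their summed level was 4670 FPKM in MUT, 3715 and 3691 in KO, and 5364 to 5819 with vehicle. Of the 10, 5 were higher in MUT, against 7.54% of all genes. Dcn, the proteoglycan decorin, had 22.3 FPKM in MUT and 6.12 and 6.89 in KO, a difference of 1.64 ± 0.14 (adjusted p = 4.16e-28). Thy1, a surface protein of fibroblasts that is lost early in reprogramming, had 245 FPKM in MUT against 96.3 and 89.4 (1.39 ± 0.16, adjusted p = 1.01e-15). Vim, vimentin, had 1632 FPKM in MUT and 1720 and 1842 in KO and did not pass the test. The summed marker level moves with the matrix genes, some of which are on both lists, and its part in the matrix difference was not tested. In bulk RNA, fewer cells of a type and less RNA per cell cannot be told apart.

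Markers of other cell types were measured as well. Over all genes tested 7.54% were higher in MUT and 6.96% lower, the background for each count in this paragraph. Among genes chosen by their level with vehicle, 791 of 9404 were higher and 518 lower. The 8 macrophage markers summed to 15.1 FPKM in MUT, 9.35 and 7.81 in KO and 23.4 to 46.0 with vehicle, and 4 of them were under 1 FPKM in MUT and both KO libraries. Laptm5 was the 1 macrophage marker tested and was higher in MUT, at 5.88 FPKM against 3.31 and 2.84. The 8 keratinocyte markers summed to 155.4 FPKM in MUT, 323.4 and 297.3 in KO and 144.7 to 180.02 with vehicle, and 4 of them were under 1 FPKM in MUT and both KO libraries. Sfn and Cdsn were tested and both were lower in MUT. Cdsn, corneodesmosin of the outer skin layer, held most of the sum in MUT and KO, at 139.4 FPKM against 290.4 and 263.2, and was at 2.81 to 18.4 with vehicle. The keratins Krt14 and Krt17 were under the level needed for the test, at 1.23 FPKM in MUT against 1.58 and 1.90, and at 2.45 against 1.74 and 1.70. The part of such cells in the other differences was not tested. Sfn, the cell cycle regulator 14-3-3 sigma, had 11.9 FPKM in MUT, 29.1 and 29.6 in KO, 131.5 in HET and 95.0 and 85.0 in WT. Neural markers summed to 89.7 FPKM in MUT and 65.2 and 79.5 in KO; Gap43, a protein of growing axons, and Tubb3 were higher in MUT and Nes was lower (3 lower without KO replicate 1, 0 without KO replicate 2). The sum for adipocyte markers was 20.7 FPKM in MUT and 32.6 and 31.5 in KO, and Fabp4 and Pparg were lower in MUT. Acta1 of skeletal muscle and Col2a1 of cartilage were lower in MUT as well, from 8.43 and 11.3 FPKM in KO to 4.75, and from 5.38 and 5.04 to 1.59. Both passed the filter only through KO; chosen by their level with vehicle, 0 of 4 genes of the cartilage list were lower and Acta1 still was. Sox9, also on the cartilage list, was higher by 0.55, a call lost without KO replicate 2. No endothelial or Schwann cell marker reached the level needed for the test; their sums in MUT and KO were 6.03 to 6.501 FPKM and 6.37 to 7.98 FPKM. On the trophoblast and primitive endoderm list Krt7 and Gata3 were lower in MUT and Dab2 was higher, a call lost when either KO library was left out, and chosen by their level with vehicle 0 of 2 were called; the sums were 42.3 FPKM in MUT and 44.3 and 41.9 in KO.

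Enzymes that cut the matrix did not move as a block. Of 18 matrix proteases and their inhibitors tested, 6 were higher in MUT and 4 lower, against 7.54% and 6.96% of all genes. Adamts2, which trims the ends of procollagens, was higher, at 7.24 FPKM in MUT against 3.29 and 2.79. Adamts4 and Adamts1, which cut proteoglycans, were higher by 0.93 and 0.68 on the log2 scale. Mmp13, an interstitial collagenase, was lower in MUT at 6.496 FPKM against 31.8 and 28.3 in KO (-2.05 ± 0.14, adjusted p = 7.76e-48). Plaur, the urokinase receptor, was lower at 55.8 FPKM against 117.8 and 119.2. For Plaur the vehicle libraries lay between 36.5 and 46.3 FPKM, so MUT was nearer to them than KO was.

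The contractile and TGF-beta list went the other way from the collagens. Of 25 genes tested, 12 were lower in MUT, against 6.96% of all genes, and 3 higher, against 7.54%, with a median of -0.37. Cnn1, calponin of smooth muscle, had 16.3 FPKM in MUT and 33.0 and 41.5 in KO. Lmod1, which nucleates actin filaments in smooth muscle, had 3.65 FPKM in MUT against 9.79 and 9.60. Acta2 and Tagln, the usual marks of contractile fibroblasts, were lower by 0.64 and 0.57. Tgfbr3, a TGF-beta co-receptor, was higher, at 31.2 FPKM against 14.2 and 12.8 (1.15 ± 0.14, adjusted p = 2.53e-15), as were Tgfbr2 and Tgfbi. The vehicle libraries differed in the same direction on this list, with a median HET minus WT of -0.58, and 11 of the 12 genes lower in MUT were also lower in HET than in the WT mean.

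Regulators and adhesion proteins of mesenchymal cells were mixed. Of 24 tested, 4 were higher in MUT and 5 lower, against 7.54% and 6.96% of all genes. With median-of-ratios scaling 7 were higher, and 3 were lower when the named rows were rescaled. Cdh11, the cadherin of mesenchymal cells, had 124.8 FPKM in MUT and 68.1 and 68.8 in KO. Pdgfra, a growth factor receptor, and Zeb1, a repressor of epithelial genes, were higher by 0.79 and 0.54. Nt5e, the ecto-enzyme CD73, was lower, at 4.70 FPKM in MUT and 21.95 and 21.4 in KO (-1.99 ± 0.14, adjusted p = 3.58e-45), although HET was above WT, at 12.9 FPKM against 6.67 and 8.23. Snai1, Snai2, Twist1 and Twist2 did not pass the test, with log2 differences between -0.23 and 0.35.

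Genes of cell division were higher in MUT. Mitosis genes chosen by their level with vehicle were higher in MUT in 29 of 29 cases, against 791 of all 9404 genes so chosen. With the filter on MUT and KO, 25 were tested and 25 were higher, against 7.54% of all genes. Their median log2 difference was 0.97, but 9 of them passed only through MUT. Mki67, the proliferation antigen (chr7:135689784-135716361, minus strand), had 7.13 FPKM in MUT and 2.60 and 2.297 in KO (1.24 ± 0.21, adjusted p = 1.08e-07). Birc5, survivin, had 25.3 FPKM in MUT against 11.1 and 9.29 (1.23 ± 0.14, adjusted p = 1.77e-17). Bub1b, a kinase of the spindle checkpoint, had 8.60 FPKM against 3.51 and 3.44, and Top2a, topoisomerase II alpha, had 25.1 against 11.8 and 10.7. All 4 were far under their vehicle levels, which were 14.9 to 21.9 FPKM for Mki67 and 55.6 to 80.3 for Birc5.

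Replication genes followed the mitosis genes with smaller differences. Of 25 tested, 21 were higher in MUT, against 7.54% of all genes. Chosen by their level with vehicle, 26 of 32 were higher, against 791 of 9404 genes. Uhrf1, which keeps DNA methylation through replication, had 20.4 FPKM in MUT and 10.7 and 7.79 in KO. Tk1, thymidine kinase, had 22.2 FPKM against 12.5 and 9.21, and Prim1, the primase subunit, had 11.6 against 5.87 and 5.29. Mcm2 to Mcm7, the subunits of the replicative helicase, were all higher, by 0.47 to 0.77. Pcna, Rrm2, Rfc3 and Gins2 did not pass the test, with differences of 0.19 to 0.27.

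HET was above the WT mean in 25 of the 25 mitosis genes and in 25 of the 25 replication genes, with median differences of 0.44 on both lists. The test of the difference between differences called 5 of the mitosis genes, all more positive after 4OHT, against 3.74% of all genes. Among them were Mki67 (0.76 ± 0.19, adjusted p = 0.0328), Birc5 and Bub1b. The same test called 0 of the 25 replication genes, with 2 at an unadjusted p under 0.05. The CDK inhibitors were split. Cdkn2c and Cdkn1b were higher in MUT by 0.57 and 0.39, and Cdkn2a, which encodes p16 and p19ARF, was lower, at 216.8 FPKM against 287.6 and 327 (adjusted p = 0.0228, and 0.0522 with quantile normalization). Cdkn1a, p21, had 426.5 FPKM in MUT and 478.6 and 514.1 in KO and did not pass the test. Over the 26 p53 targets and CDK inhibitors tested, 3 were higher and 2 lower, shares near the 7.54% and 6.96% of all genes, with Bbc3 among the former and Pmaip1 among the latter; without KO replicate 1 the lower count was 4 and without KO replicate 2 it was 1. The call of Pmaip1, a death-inducing BH3 protein, was lost then (adjusted p = 0.223).

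**Figure D3:**
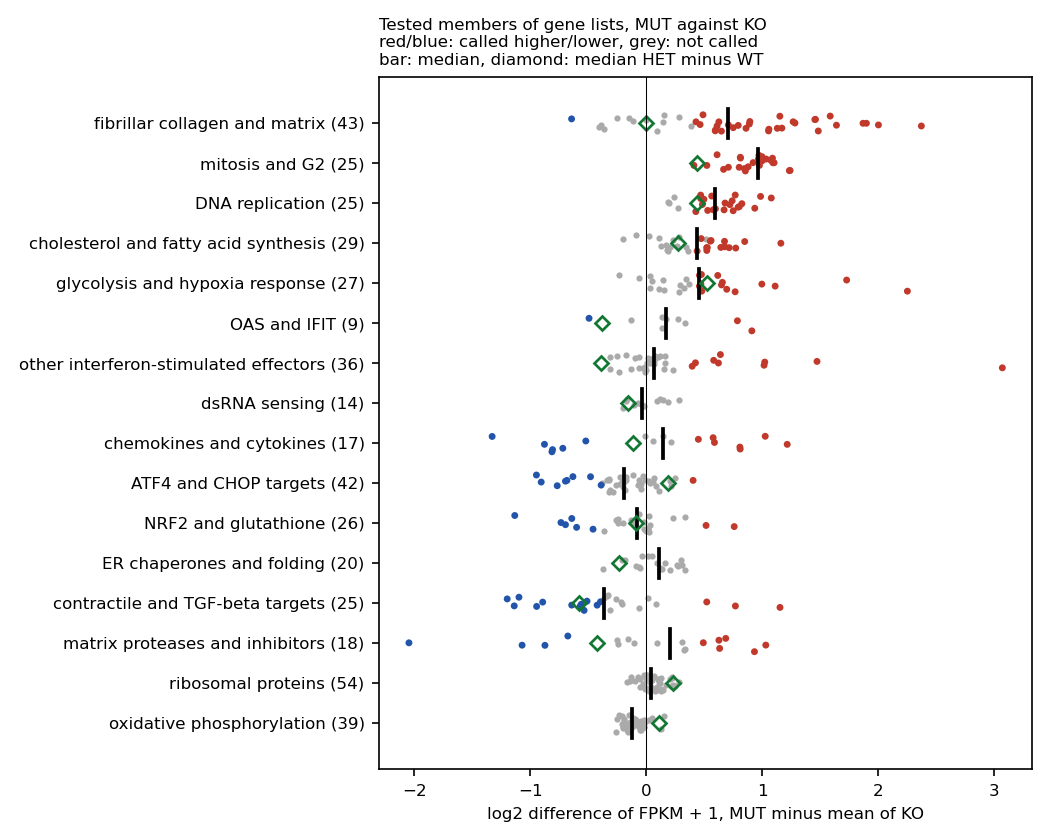
Each point is 1 tested gene of the named list, placed by its log2 difference of FPKM + 1, MUT minus the mean of KO. Red and blue points were called higher and lower, grey points were not called, black bars are list medians and green diamonds are the median HET minus WT of the same genes. The matrix genes have a median of 0.71 with the diamond near 0, and the ribosomal proteins lie near 0 with no call.

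The ATF4 and CHOP targets, read as the sign of the integrated stress response, were lower in MUT in part of the list. Of 42 tested, 8 were lower, against 6.96% of all genes, and 1, Bbc3, was higher, against 7.54%, with a median of -0.19. The call of Bbc3 was lost without KO replicate 2. Chosen by their level with vehicle, 5 of 38 were lower, against 518 of 9404 genes. Chac1, a glutathione-degrading enzyme and one of the sharpest ATF4 targets (chr2:119351229-119354381, plus strand), had 73.7 FPKM in MUT and 146.2 and 140.2 in KO (-0.95 ± 0.16, adjusted p = 1.25e-07). Atf3, a stress-induced transcription factor (chr1:191170296-191218039, minus strand), had 22.2 FPKM in MUT and 41.4 and 43.6 in KO (-0.91 ± 0.14, adjusted p = 1.67e-08). Ddit3, which encodes CHOP, had 484 FPKM in MUT and 761 and 743 in KO, and Nupr1, a stress-induced chromatin protein, had 285.9 against 475.4 and 500.6. In these 4 genes MUT lay between KO and the vehicle libraries and remained well above the latter: Chac1 was at 7.28 to 8.54 FPKM and Ddit3 at 38.4 to 54.5 with vehicle. Slc7a11, the cystine carrier, Stc2, Ppp1r15a and Cebpg were the other members lower in MUT. Ppp1r15a encodes GADD34, which brings the phosphatase to eIF2 alpha, and had 51.1 FPKM in MUT against 78.4 and 65.7.

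Many targets of the same factors did not pass the test. Atf4 itself had 178 FPKM in MUT and 200 and 171 in KO, and its amino acid targets Asns and Trib3 had 104 against 123 and 118, and 75.9 against 92.7 and 93.5. The test of the difference between differences called 7 of the 42 genes more negative after 4OHT, against 1.2% of all genes, and 1 more positive, against 3.74%. Chac1 gave -1.10 ± 0.17 (adjusted p = 0.00179) and Atf3 -1.07 ± 0.17 (adjusted p = 0.0024). HET was above the WT mean in 34 of the 42. Of the 8 called lower, 3 were also lower in HET than in WT.

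The other branches of the response to misfolded protein in the endoplasmic reticulum differed little between MUT and KO. limma called 0 of 20 ER chaperones and folding enzymes, against 14.5% of all genes. At an unadjusted p under 0.05, 1 was higher and 1 lower. Without KO replicate 1, 1 was called lower, and without KO replicate 2, 1 higher. Hspa5, the chaperone BiP, had 346 FPKM in MUT and 395 and 404 in KO. Dnajb9, a BiP cofactor, had 25.3 FPKM against 30.7 and 35.8, and Txndc5, a disulfide isomerase, had 134.9 against 109.0 and 108.6. Among 25 XBP1 and ER-associated degradation genes tested, Ern1, the sensor IRE1 alpha, and Srp54a, of the signal recognition particle, were lower in MUT. That share is near the 6.96% of all genes. Ern1 had 5.18 FPKM against 8.29 and 7.77, and its adjusted p was 0.0739 without KO replicate 1. Of 7 genes around eIF2 alpha, Ppp1r15a was lower and none of the others passed the test. The call of Ppp1r15a was lost without KO replicate 1 (adjusted p = 0.0853). Eif2s1, eIF2 alpha itself, had 59.8 FPKM in MUT and 68.6 and 73.8 in KO.

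Genes of the NRF2 pathway and of glutathione, which answer oxidative stress, were lower in MUT for 6 of 26 and higher for 2, against 6.96% and 7.54% of all genes. Txnrd1, thioredoxin reductase, had 293.4 FPKM in MUT and 607.4 and 686.3 in KO (-1.14 ± 0.17, adjusted p = 7.17e-10). Hmox1, heme oxygenase, had 440.5 FPKM against 709.97 and 760.4. Both lay between KO and vehicle, where Txnrd1 was at 103.9 to 145.7 FPKM and Hmox1 at 92.7 to 130.7. The 6 genes lower in MUT were all lower in HET than in WT, and the test of the difference called 0 of the 26, with 2 at an unadjusted p under 0.05. Without KO replicate 1 the number lower was 10. Gsta4 and Gstm1, glutathione transferases, were the 2 higher in MUT. Of 28 lysosomal genes, 4 were lower: Sqstm1, the autophagy receptor p62, had 664 FPKM in MUT and 1122 and 1120 in KO, and Gpnmb, Ctsh and Atp6v1b2 were lower by 0.41 to 0.59. HET was below the WT mean in 27 of the 28, these 4 included. The median was -0.49 for HET minus WT and -0.08 for MUT minus KO. The test of the difference called 3 of the 28 more positive after 4OHT, against 3.74% of all genes, and 0 more negative. Gpnmb gave -0.59 after 4OHT and -1.46 with vehicle.

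Sensors of double-stranded RNA did not pass the test. limma called 0 of 14, against 14.5% of all genes, with 1 higher at an unadjusted p under 0.05. The differences ran from -0.20 to 0.28. Ifih1, which encodes MDA5, had 30.7 FPKM in MUT and 35.2 and 35.5 in KO, against 6.15 to 12.4 with vehicle. Zbp1, a sensor of Z-form RNA, had 79.4 FPKM in MUT and 85.4 and 78.4 in KO. The row that holds Eif2ak2, the kinase PKR, together with Sult6b1 had 74.6 FPKM in MUT and 68.6 and 74.0 in KO. MUT was thus within or near the KO range for each of these.

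Most interferon-stimulated genes did not pass the test between MUT and KO, and a small number were higher in MUT. MUT lay above both KO libraries in 6 of 9 OAS and IFIT genes, 5 of 8 interferon-inducible GTPases and 17 of 36 other effectors, against 29.8% of all genes. Of the 9 OAS and IFIT genes with rows of their own, Oas2 and Ifitm2 were higher in MUT and Ifit2 was lower. Over all genes the called shares were 7.54% higher and 6.96% lower. Oas2, which makes the messenger molecule that activates RNase L, had 21.7 FPKM in MUT and 11.7 and 10.5 in KO (0.91 ± 0.14, adjusted p = 1.08e-09). Ifit2 had 82.5 FPKM in MUT and 133 and 102.2 in KO, and its adjusted p was 0.158 without KO replicate 1; without that library 5 of the 9 were called higher. Ifit1 had 206 FPKM in MUT and 232 and 220.5 in KO, and Isg15, a ubiquitin-like modifier, had 886 against 962 and 1155. Neither passed the test. The shared rows of Ifit3 and Ifit3b (673 FPKM against 597 and 591) and of Oas1a and Oas1g (50.1 against 62.8 and 43.6) did not pass either.

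Among 8 interferon-inducible GTPases 1 was higher in MUT, Iigp1, at 150.1 FPKM against 114.8 and 100.7, with an adjusted p of 0.0248 that became 0.0697 without KO replicate 2; without KO replicate 1 the count was 2. The shared row of Tgtp1 and Tgtp2 had 126 FPKM in MUT against 85.2 and 78.1 (0.62 ± 0.16, adjusted p = 0.00128), and that of Gbp4, Gbp6 and Gbp9 had 48.8 against 37.4 and 32.5. The rows of Igtp and Irgm2 (135 FPKM against 112.5 and 94.0) and of Ifi47 and Olfr56 (68.7 against 59.0 and 52.1) did not pass. Over all genes tested, 7.54% were called higher and 6.96% lower. Of 36 other interferon-stimulated effectors 9 were higher, led by Ifi27l2a, Ifi203, Sp100 and Slfn8, and none lower; 2 were lower without KO replicate 1 and 1 without KO replicate 2. Of the 36, 2 passed the filter only through MUT, Ifi27l2a among them. Chosen by their level with vehicle, 6 of 32 were higher, against 791 of 9404 genes. Ifi27l2a, a small mitochondrial protein, had 34.8 FPKM in MUT and 2.70 and 3.92 in KO (3.07 ± 0.15, adjusted p = 4.21e-84), the largest positive difference of all genes tested. It was also far higher in HET than in WT, at 137.8 FPKM against 24.9 and 17.6.

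The interferon genes were lower in HET than in WT for most members, while their medians were near 0 between MUT and KO. Median HET minus WT was -0.38 for OAS and IFIT, -0.63 for the GTPases and -0.39 for the other effectors, against medians of 0.17, 0.15 and 0.07 for MUT minus KO. The test of the difference called 3, 2 and 6 members more positive after 4OHT, against 3.74% of all genes. Oas2 (1.12) and Iigp1 (1.25) were among these members. The members called higher in MUT were not all lower in HET. HET was above the WT mean in 6 of the 9 other effectors called higher, with Ifi203 (1.13) and Sp100 (0.53) among them. The same held for 1 of the 2 OAS and IFIT genes called higher and for 0 of the 1 GTPase. The test of the difference did not call Ifi27l2a, Ifi203 or Sp100. Of 14 signalling genes, Socs1 and Socs3, inhibitors of JAK kinases, were higher in MUT by 0.51 and 0.52. Over all genes 7.54% were higher, the background for this list and the next. Among 14 genes on the MHC class I list, H2-T23, a nonclassical class I gene, Psmb9, an immunoproteasome subunit, and Cd47, which restrains phagocytes and does not present peptides, were higher. H2-T23 had 108.5 FPKM in MUT and 65.5 and 65.7 in KO. Ifnb1 was under the level needed for the test, at 1.56 FPKM in MUT and 2.91 and 1.29 in KO.

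Chemokines and cytokines differed in both directions, 7 higher and 6 lower of 17 tested, against 7.54% and 6.96% of all genes. Ccl8, which attracts monocytes, had 14.6 FPKM in MUT and 5.88 and 5.59 in KO (1.21 ± 0.15, adjusted p = 9e-14), and Tnfsf9, Cxcl14, Cxcl5, Cxcl12, Ccl7 and Ccl2 were also higher. Il11, a fibroblast cytokine, had 2.26 FPKM in MUT against 6.67 and 7.78 (-1.33 ± 0.18, adjusted p = 8.67e-12), and Ccl20, Ccl5, Lif, Cxcl11 and Csf1 were lower. Chosen by their level with vehicle, 6 of 14 were higher and 2 lower, against 791 and 518 of 9404 genes. Cxcl10, the interferon-induced chemokine, had 128 FPKM in MUT and 134 and 100 in KO. Of 17 NF-kB subunits and targets 3 were higher, Vcam1, Bcl3 and Icam1, and 3 lower, Tnfaip2, Tnfaip3 and Nfkb2; with the named rows rescaled to a common total 1 was lower. Vcam1, an adhesion molecule for leukocytes, had 65.0 FPKM in MUT and 38.6 and 37.2 in KO.

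Genes of pluripotency were low after 4OHT in both allele groups, and 12 of the 45 with a row of their own reached the level needed for the test. Of these, 7 were higher in MUT and 2 lower, against 7.54% and 6.96% of all genes, with 3 passing only through MUT. When chosen by their level with vehicle, 12 of 36 were higher and 3 lower, against 791 and 518 of 9404 genes. Dppa5a, expressed in embryonic stem cells, had 15.9 FPKM in MUT and 6.91 and 3.34 in KO, against 89.9 to 149.9 with vehicle. Tdgf1, a Nodal co-receptor, had 7.92 FPKM against 4.27 and 1.22. Pou5f1, which encodes Oct4, had 12.8 FPKM in MUT, 8.03 and 2.50 in KO, 272 in HET and 222 and 175 in WT. KO 1 was higher than KO 2 in each of these 3 genes, and the median of KO 2 minus KO 1 over the 12 was -0.35 against 0.03 over all genes. Sox2 was lower in MUT, at 1.84 FPKM against 8.89 and 7.91 (-1.73 ± 0.18, adjusted p = 1.6e-20), while Klf4 was higher by 0.50 and Myc did not pass the test. For these 4 factors, reads of the OSKM construct and of the cell's own gene cannot be told apart in a gene-level value. Nanog was at 0.620 FPKM in MUT and 0.204 and 0.120 in KO, against 15.2 to 20.8 with vehicle.

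Epithelial genes, which rise when fibroblasts pass through the mesenchymal-to-epithelial transition, were also low, and 8 of 38 were tested. Of the 8, 3 were lower in MUT, against 6.96% of all genes. Spint2, an inhibitor of epithelial proteases, was lower in MUT, at 14.3 FPKM against 37.9 and 34.3 (-1.27 ± 0.14, adjusted p = 2.21e-17). Krt7 and Lama5 were the other members lower, and the call of Krt7 was lost without KO replicate 1. Chosen by their level with vehicle, 2 of 19 were higher and 2 lower, against 791 and 518 of 9404 genes. Cdh1, E-cadherin, was at 2.44 FPKM in MUT and 1.93 and 1.42 in KO, and Epcam at 3.08 against 1.72 and 1.03, both under the level needed for the test and far under the 26.3 to 35.7 and 47.9 to 62.0 FPKM with vehicle.

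Lipid and sugar metabolism were higher in MUT for about as many members as did not pass. Of 29 genes of cholesterol and fatty acid synthesis 14 were higher, against 7.54% of all genes. Chosen by their level with vehicle, 16 of 30 were higher, against 791 of 9404 genes. Fads2, a fatty acid desaturase, had 22.8 FPKM in MUT and 11.5 and 8.05 in KO (1.16 ± 0.14, adjusted p = 2.42e-15), and Idi1, an enzyme of sterol synthesis, had 14.2 against 7.05 and 8.80. Srebf2, the regulator of sterol genes, was higher by 0.68. Of 27 genes of glycolysis and the hypoxia response 14 were higher, and 3 of the 27 passed the filter only through MUT. With the vehicle filter 14 of 30 were higher, against the same 791 of 9404 genes. Slc16a3, the lactate exporter MCT4, had 23.5 FPKM in MUT and 4.13 and 4.18 in KO (2.25 ± 0.15, adjusted p = 7.6e-46). Egln3 and Pdk1, targets of hypoxia-inducible factor, had 9.38 FPKM against 2.08 and 2.19, and 10.5 against 4.36 and 4.28.

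Each of the 14 cholesterol and 14 glycolysis genes higher in MUT was higher in HET than in the WT mean, with list medians of HET minus WT of 0.27 and 0.52. The test of the difference called 0 of the 29 cholesterol genes, with 4 at an unadjusted p under 0.05, and 1 of the 27 glycolysis genes, Slc16a3 (0.68 ± 0.17, adjusted p = 0.0335).

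Housekeeping groups showed no calls. limma called 0 of 54 ribosomal protein genes and 0 of 39 genes of oxidative phosphorylation, against 14.5% of all genes. At an unadjusted p under 0.05 there were 0 of either. Their medians were 0.04 and -0.12. Without KO replicate 1, 2 ribosomal protein genes were called higher and 3 lower, and 3 genes of oxidative phosphorylation lower; without KO replicate 2, 1 ribosomal protein gene was called higher. Of 24 cell death genes, Casp12 and Bcl2l11 were higher and Bid and Cflar lower, shares near the 7.54% and 6.96% of all genes; the call of Bid was lost without KO replicate 2 (adjusted p = 0.139). Of 6 histone genes tested, H1f0 and H2afz were higher, and 1 was called lower without KO replicate 1.

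HOX genes, which record where in the body a fibroblast came from, differed in both directions. Of 7 with rows of their own, Hoxb9, Hoxc6 and Hoxa11 were lower in MUT and Hoxd12 was higher. Over all genes 6.96% were lower and 7.54% higher. Of the 7, 1 passed the filter only through MUT and 3 only through KO. With the vehicle filter 2 of 4 were lower and 0 higher, against 518 and 791 of 9404 genes. Hoxb9 had 4.89 FPKM in MUT, 13.1 and 12.9 in KO, 1.03 in HET and 4.56 and 5.16 in WT. All 7 were lower in HET than in WT, with a median of -1.09. The shared row of Hoxd9, Hoxd10 and Hoxd11 had 15.3 FPKM in MUT and 8.36 and 7.11 in KO, while HET was under WT, at 6.76 against 8.80 and 9.67. The other shared HOX rows tested were called lower in MUT. The log2 difference was -0.64 for Hoxa9 and Hoxa10 and -0.53 for Hoxa3, Hoxa5 and Hoxa6. It was -0.56 for Hoxb3 and Hoxb4, a row that passed the filter only through KO. In each of these rows HET was also under WT. Imprinted genes with rows of their own were 2 higher and 2 lower of 14 (4 higher with median-of-ratios scaling), against 7.54% and 6.96% of all genes. Dlk1, a Notch ligand relative expressed from the paternal copy, had 26.5 FPKM in MUT and 5.31 and 4.997 in KO (2.16 ± 0.15, adjusted p = 1.14e-46), and 145.9 in HET against 26.9 and 24.0 in WT. Plagl1, a zinc finger factor, was lower at 16.5 FPKM against 61.1 and 63.9. The row of H19 and Mir675 had 1408 FPKM in MUT and 504 and 475 in KO. The shared rows that hold Meg3 and Mirg were also called higher in MUT (0.73 and 0.66). The row of Snrpn and Snurf was called lower (-0.55), and the row that holds Rian did not pass the test. HET minus WT was 0.94 for the H19 row, 0.64 for Meg3, 0.88 for Mirg and 0.22 for Snrpn. Eif2s3y on the Y chromosome was lower by 0.73, and Ddx3y, Kdm5d and Uty did not pass the test.

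The genes with the largest differences included several that separate the 2 allele groups with or without 4OHT. Among those higher in MUT were Crabp1, which binds retinoic acid (124.9 FPKM in MUT, 19.5 and 21.8 in KO), Lsp1, an actin-binding protein of leukocytes (78.4 against 15.1 and 14.2), Medag (54.2 against 11.9 and 10.7), Ptn, a growth factor (91.2 against 22.97 and 28.5), and Ptgs1, cyclooxygenase 1 (28.6 against 7.48 and 7.10). HET was above WT for all 5, by 1.26 to 2.18 on the log2 scale. The test of the difference called Lsp1, more positive after 4OHT (0.67). It did not call the others, of which Crabp1 gave 0.66. Serpina3n, a protease inhibitor, differed from these: it had 31.2 FPKM in MUT and 6.23 and 5.83 in KO, with HET at 43.6 and WT at 48.9 and 41.8.

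Among those lower in MUT, Lhx2 and Msx2, transcription factors of limb and skin, had 2.58 FPKM in MUT against 18.4 and 16.0, and 4.57 against 25.3 and 23.8. Adcyap1, a neuropeptide gene, had 2.19 FPKM in MUT against 16.1 and 18.9. Bmp4, a bone morphogenetic protein, had 13.4 against 53.9 and 49.7, and Tnfrsf11b, the decoy receptor osteoprotegerin, had 7.84 against 25.5 and 33.8. For these 5 genes HET was lower than WT by 1.84 to 2.96, and the test of the difference did not call them. S100a7a, a calcium-binding protein of skin, had the strongest difference of these, at 3.04 FPKM in MUT and 23.7 in both KO libraries (-2.61 ± 0.14, adjusted p = 6.4e-76). Gjb2, a gap junction protein, had 5.06 FPKM against 20.3 and 21.3. Igfbp2, which binds insulin-like growth factors, had 12.3 FPKM in MUT, 53.2 and 46.5 in KO, 126.3 in HET and 86.5 and 74.4 in WT. Eif4a2, a helicase of translation initiation, had 174.5 FPKM in MUT, but its KO libraries were themselves apart, at 728.7 and 481.8, and so were WT at 859.4 and 584.6.

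How far the MUT and KO difference was already present without 4OHT was read from HET and WT, which share no library with it. Over all genes tested Pearson's r between MUT minus KO and HET minus WT was 0.471, and over the called genes 0.660, as descriptions across genes. Of the 688 genes higher in MUT, 512 (74.4%) had HET above WT, and in 299 the vehicle difference was at least 0.5 times as large. Of the 635 lower in MUT, 493 (77.6%) had HET below WT, and in 345 it was at least 0.5 times as large. The test of the difference called 175 of the 688 in the same direction and 0 in the opposite one, and 78 of the 635 in the same direction and 22 in the opposite one. For the remaining genes the test gives no sign that the difference depends on 4OHT, which does not show that it is the same. A further 175 genes passed this test without being called between MUT and KO, 144 of them more positive. With 1 HET and 1 MUT library, differences between the Fl/E861A and Fl/Fl cultures and effects of the E861A allele cannot be told apart.

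**Figure D4:**
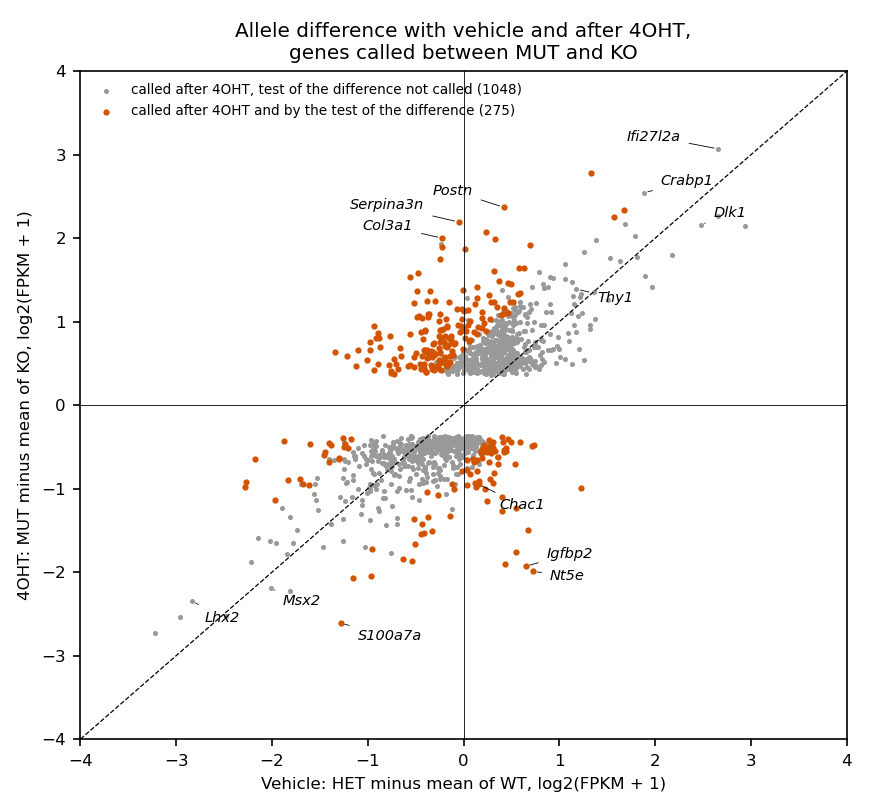
Each point is 1 of the 1323 genes called between MUT and KO, with HET minus the mean of WT on the x axis and MUT minus the mean of KO on the y axis, both in log2(FPKM + 1). The dashed line marks equal differences. Ifi27l2a, Crabp1, Dlk1, Lhx2 and Msx2 lie near that line, while Postn, Col3a1, Serpina3n, Nt5e and Igfbp2 lie away from it among the 275 genes that the test of the difference also called (orange).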

How the data were processed

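Total RNA was sequenced from 6 libraries, grouped by title, after ribosomal RNA had been removed with a Ribo-Zero kit, per the labels' protocols. The submitters' processing notes name Cufflinks 2.2.1, TopHat2 2.1.1 and Bowtie2 2.3.0, and the builds mm10 and GRCm38. Annotation, strand use and scaling between libraries: not given in the sources used here. Per the file headers, the authors deposited 1 FPKM value per row, with a decimal comma. Because they are not counts, no count test was run. Of 24879 rows per file, 1021 without a gene name were left out, and 314 names that occurred repeatedly were reduced to their most highly expressed row, leaving 23406 names; rows naming several genes were kept and are described as such. Depth is not stated. It was estimated from the steps of FPKM in 4044 single-transcript genes, with fragments taken as 200 bases long, and it limits low genes most.

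The scale was log2(FPKM + 1). Linear models were fitted in limma 3.58.1 under R 4.3.3, with variances moderated along a mean-variance trend, and two-sided p-values were adjusted by Benjamini-Hochberg and called under 0.05. The code was tested on simulated data. MUT against KO used those 3 libraries, with 1 residual degree of freedom per gene from the KO pair. The difference between (MUT minus KO) and (HET minus WT) used 4 group means over 6 libraries. Reads of overlapping genes, antisense genes and close paralogs cannot be told apart. Coordinates come from GENCODE M21 on GRCm38. The genes named by rule are Adar and Adarb1, the up to 3 tested members of each of 33 lists and the 1 tested member of each of 10 marker lists with the largest difference, and the 12 largest differences in each direction that were called, at least 2-fold beyond both KO libraries and at a mean of 10 FPKM or more, leaving out rows of several genes, small RNA, predicted, Rik and LOC genes. Other genes named were chosen after their values were seen. Some genes that the rule or the lists hold are not reported here. The comparison, its members and the lists were chosen with earlier results of these data known. Alternatives were other pseudocounts, filters, scalings and variance models and leaving out each replicate.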

Additional observations from a re-analysis of the deposited data

Results flagged for a closer look

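The allele difference after 4OHT, MUT minus KO, was set against that with vehicle, HET minus WT, and 39 of the genes named by rule had a difference between these differences that limma called at an adjusted p under 0.05. The values below are that difference in log2(FPKM + 1), with HET and MUT at 1 library each; no explanation was weighed. Among matrix genes and their proteases it was positive for Col3a1 (2.23), Mfap4 (2.12), Postn (1.95), Col6a3 (1.85), Adamts2 (1.22) and Dcn (1.01), and negative for Mmp13 (-1.09) and Plaur (-0.80). In the mitosis and cell cycle genes it was positive for Cdkn2c (0.90), Mki67 (0.76), Birc5 (0.71) and Bub1b (0.64). Of the interferon, antigen presentation and adhesion genes it was positive for Iigp1 (1.25), Oas2 (1.12), Cd47 (1.12), Vcam1 (1.01) and Psmb9 (0.77). Stress and signalling genes gave negative values for Il11 (-1.18), Chac1 (-1.10) and Atf3 (-1.07) and positive ones for Casp12 (0.96) and Gpnmb (0.86). For genes of pluripotency and epithelium it was 2.09 for Dppa5a, -0.77 for Sox2, -1.67 for Spint2 and -1.77 for Sfn. It was positive for Tgfbr3 (1.17) and Cdh11 (0.72) and negative for Nt5e (-2.72). The other genes flagged in this way were Serpina3n (2.25), Hoxd12 (1.21), Slc16a3 (0.68) and Lsp1 (0.67) on the positive side, and Adat2 (-0.72), Gjb2 (-1.21), Plagl1 (-1.32), S100a7a (-1.33), Eif4a2 (-2.30) and Igfbp2 (-2.58) on the negative side.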

How the results depend on the processing

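The 1323 calls between MUT and KO (688 higher, 635 lower) and the 450 calls of the difference between differences stayed within 1.5 times of these counts under most settings, and the exceptions follow; their cause was not tested. With no filter on low values limma called 0 genes in either direction and 0 for the difference between differences, with 3014 and 2615 at an unadjusted p under 0.05. The count lower in MUT was 396 when the named rows were rescaled to a common total. The 163 genes at least 2-fold beyond both KO libraries became 72 with a pseudocount of 5, and the difference between differences gave 690 calls with quantile normalization. A filter on the vehicle libraries, chosen after seeing the data, gave 791 higher and 518 lower, 60.4% of the calls higher. Leaving out 1 KO library, with the spread taken from the WT pair and the lone KO and MUT libraries assumed to vary like WT, gave 1048 to 1642 calls, 595 to 757 higher, 453 to 885 lower and 187 to 251 at 2-fold; leaving out 1 KO or WT library gave 550 to 919 calls of the difference between differences, the highest without KO replicate 1. Of the 98 called genes named by rule, 93 or more stayed called under every setting that tested all 98, except without the filter, where none did. The Adar difference ran from -0.0527 (without KO replicate 2) to 0.0722 (without KO replicate 1). No paired analysis was possible because MUT and HET are single libraries whose labels carry no replicate number. Depth and the lone MUT library limit low genes most.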
